A study of Mus musculus with 48 samples.

Results

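Heme is made in a chain of enzymes that begins and ends in the mitochondrion, is broken down by heme oxygenases, and is used as the prosthetic group of the cytochromes P450. In mouse kidney, 9 genes of this system were followed around the day, out of 12423 genes measured in both assays. The rule lists them by name and uses no measured value, although earlier results of these data were known when the list was drawn up. They comprised 6 enzymes of synthesis (Alas1, Alad, Urod, Cpox, Ppox and Fech), both heme oxygenases (Hmox1 and Hmox2) and Por, the flavoprotein that passes electrons from NADPH to the microsomal P450s and to heme oxygenase. All 9 passed the minimum for testing, a median of at least 0.5 RPKM (reads per length of coding sequence and per library size) in both assays.

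The kidneys came from 48 untreated male C57BL/6JRj mice aged 11 to 12 weeks, kept in 12 h of light and 12 h of dark. They were collected every 2 h at 12 timepoints from ZT00 (lights on) through ZT12 (lights off) to ZT22. At each timepoint there were 2 replicate pools of lysates from 2 mice each, and each of the 24 pools gave 1 library of ribosome footprints (RPF-seq) and 1 library of total RNA (RNA-seq). Footprints are the pieces of mRNA that ribosomes shield from nuclease, so RPF-seq follows translation and RNA-seq follows transcript abundance, while their ratio within a pool is taken as translation efficiency (TE). The labels name no mutation or drug in any group, and time of day was the variable under study. Per the study's methods the mice were killed over 2 daily cycles. Which pools belong to which cycle is not given in the sources used here. Because whole kidneys were used, a change in the number of cells of a type and a change in RNA per cell cannot be told apart.

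The synthesis pathway starts with Alas1, the rate-limiting 5-aminolevulinate synthase of non-erythroid cells, and passes through enzymes that include Alad (porphobilinogen synthase), Uros, Urod, Cpox and Ppox to Fech, the ferrochelatase that inserts iron into protoporphyrin. Hmox1 is the inducible and Hmox2 the constitutive heme oxygenase, which open the ring to biliverdin, carbon monoxide and iron. Kidney is a P450-rich organ with a proximal tubule that also takes up and degrades heme.

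Of the 9 genes, 3 cycled over the day. Alas1 mRNA rose about 1.95-fold from trough to peak with a maximum near ZT14.7, Por mRNA rose 1.51-fold with a maximum near ZT11.1, and Hmox1 mRNA rose 1.52-fold with a maximum near ZT19.5. Alas1 and Hmox1 also cycled in footprints, by 2.12-fold and 1.96-fold. The enzymes of synthesis after Alas1 and the constitutive oxygenase Hmox2 did not pass the rhythm call in either assay.

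A gene was called rhythmic when a 24-h cosine passed limma's moderated F test at a Benjamini-Hochberg adjusted p (FDR) under 0.05 over 11863 genes and its fitted maximum was at least 1.5 times its fitted minimum (the fold, from trough to peak). By this rule 3 of the 9 genes were called in RNA-seq, where 10.2% of all genes tested were called. In RPF-seq 2 of 9 were called, against 7.58% of all genes. No gene of the 9 was called in TE, against 3.74% of all genes. With the FDR alone and any fold, RNA-seq gave 4 of 9 (48.6% of all genes), RPF-seq 5 of 9 (30.9%) and TE 0 of 9 (17.1%), and 3 of the 9 had an unadjusted p under 0.05 in TE. The share of all genes under that unadjusted cutoff is not given, here or for the lists below. Counts at an unadjusted p therefore cannot be set against a background. The median mRNA fold of the 9 genes was 1.17 beside 1.20 over all genes tested, and the median footprint fold was 1.19 beside 1.18.

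**Figure D1:**
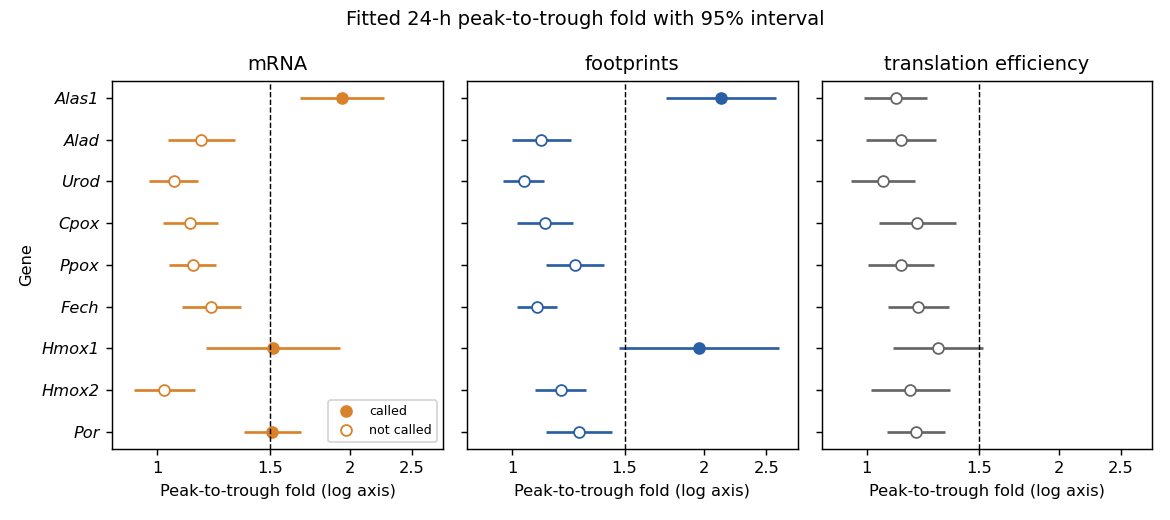
Fitted 24-h peak-to-trough fold (x axis, log scale) of each of the 9 genes in RNA-seq, RPF-seq and TE, with 95% intervals as bars, filled points for called genes and a dashed line at the 1.5-fold cutoff. Alas1 and Hmox1 lie right of the line in both RNA-seq and RPF-seq, Por lies just past it in RNA-seq alone, and all TE folds lie left of it.

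The 9 genes differed widely in level. Por had the highest mean in RNA-seq with 183 ± 33.4 RPKM (SD, n = 24 libraries, the daily change included), followed by Alas1 with 167 ± 49.1, Cpox with 111 ± 10.4 and Fech with 110 ± 12.3 RPKM. Alad (83.5 ± 10.1), Urod (71.7 ± 5.45), Hmox2 (52.5 ± 4.90) and Hmox1 (30.6 ± 8.50 RPKM) came next, and Ppox, the oxidase before ferrochelatase, was lowest with 12.4 ± 1.01 RPKM. Neighbours in this order were compared by their log2 ratio within each library, with a two-sided sign-flip permutation test of 100000 resamples adjusted over 16 pairs. Cpox and Fech were the neighbours that did not differ, with a mean log2 ratio of 0.01 and Cpox the higher in 8 of 24 libraries (adjusted p = 0.86). The other 7 pairs in RNA-seq passed, with Por over Alas1 the closest of them (higher in 17 of 24 libraries, adjusted p = 0.025). That order changed with the hour, and Alas1 was the higher in both libraries at ZT14, ZT16 and ZT18.

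In RPF-seq the order was Por (300.0 ± 40.6 RPKM), Alas1 (262 ± 87.9), Cpox (141 ± 13.9), Alad (125 ± 13.9), Urod (108 ± 6.49), Fech (93.6 ± 6.03), Hmox1 (77.3 ± 31.8), Hmox2 (57.6 ± 5.82) and Ppox (9.38 ± 1.06 RPKM). All 8 neighbouring pairs passed the same test, the weakest being Por over Alas1 (17 of 24 libraries) and Hmox1 over Hmox2 (16 of 24 libraries), both with an adjusted p of 0.0097. Thus Fech, level with Cpox in mRNA, stood below Cpox, Alad and Urod in footprints. Hmox1, below Hmox2 in mRNA, stood above it in mean footprints. The order of these oxygenases in footprints changed with the hour, and Hmox1 was the lower in both libraries at ZT08, ZT10 and ZT12. The order of Por and Alas1 no longer passed in 12 libraries of replicate 2 alone (adjusted p = 0.30 in RNA-seq and 0.18 in RPF-seq, exact sign-flip test), nor did that of Hmox1 and Hmox2 (adjusted p = 0.18), and Fech over Hmox1 failed in replicate 1 alone (adjusted p = 0.099).

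**Figure D2:**
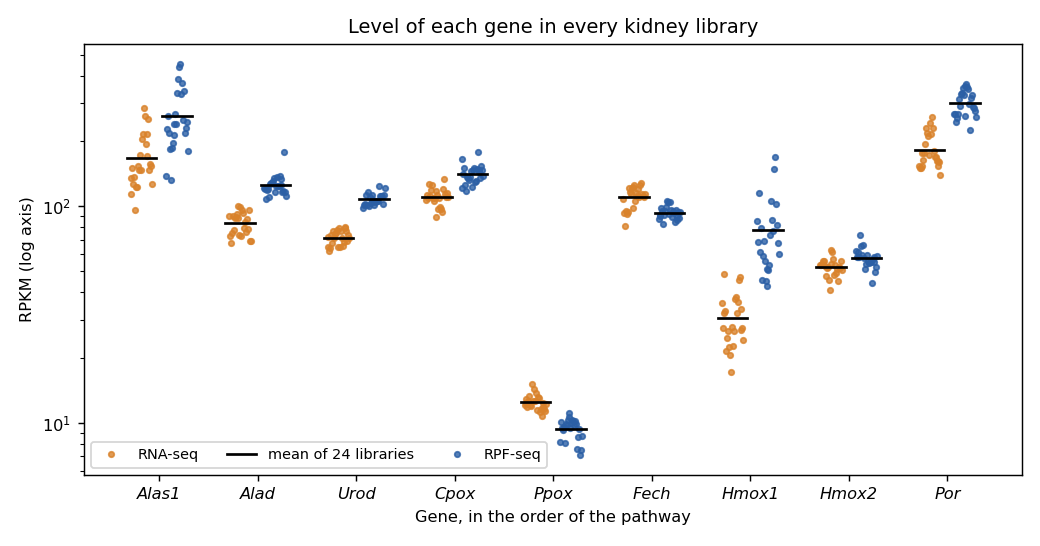
RPKM (y axis, log scale) of each gene in every kidney library, with RNA-seq in orange, RPF-seq in blue and a black line at the mean of 24 libraries. Ppox lies lowest at about 12.4 RPKM in RNA-seq, and Alas1 and Hmox1 show the widest spread between libraries.

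Alas1, the gate of the pathway, was lowest in the morning and highest early in the night. In RNA-seq the 2 pools had 114 and 135 RPKM at ZT00, 151 and 126 at ZT02, 136 and 95.7 at ZT04, 123 and 122 at ZT06, 153 and 147 at ZT08, and 172 and 147 at ZT10. They had 204 and 215 RPKM at ZT12, 284 and 260 at ZT14, 193 and 215 at ZT16, 171 and 253 at ZT18, 146 and 156 at ZT20, and 154 and 127 at ZT22. All libraries from ZT12 to ZT16 stood above all 12 libraries from ZT00 to ZT10, and the 2 pools at ZT18 lay far apart. The fitted fold was 1.95 (95% interval 1.67 to 2.26, log2 fold 0.96 ± 0.11 SE, limma FDR 1.2e-06) and the peak fell at ZT14.7 ± 0.44 h (SE).

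Alas1 footprints followed the same course on a larger scale. They stood at 138 and 228 RPKM at ZT00, 262 and 217 at ZT02, 185 and 132 at ZT04, 185 and 195 at ZT06, 240 and 212 at ZT08, and 267 and 239 at ZT10. After lights off they reached 335 and 387 RPKM at ZT12, 440 and 456 at ZT14 and 329 and 372 at ZT16, then 251 and 339 at ZT18, 218 and 230 at ZT20, and 244 and 180 at ZT22. Again the 6 libraries from ZT12 to ZT16 did not overlap those from ZT00 to ZT10. The fitted fold was 2.12 (95% interval 1.74 to 2.59, limma FDR 2.1e-05) with a peak at ZT14.4 ± 0.52 h (SE), which was 0.31 h before that of the mRNA by a difference of -0.31 ± 0.68 h (SE), within its error. TE of Alas1 moved between 1.21 and 1.80 across pools with a fitted fold of 1.11 (95% interval 0.99 to 1.24, limma FDR 0.37). Both Alas1 calls remained past the threshold without any one of the 24 pools and with either replicate left out.

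**Figure D3:**
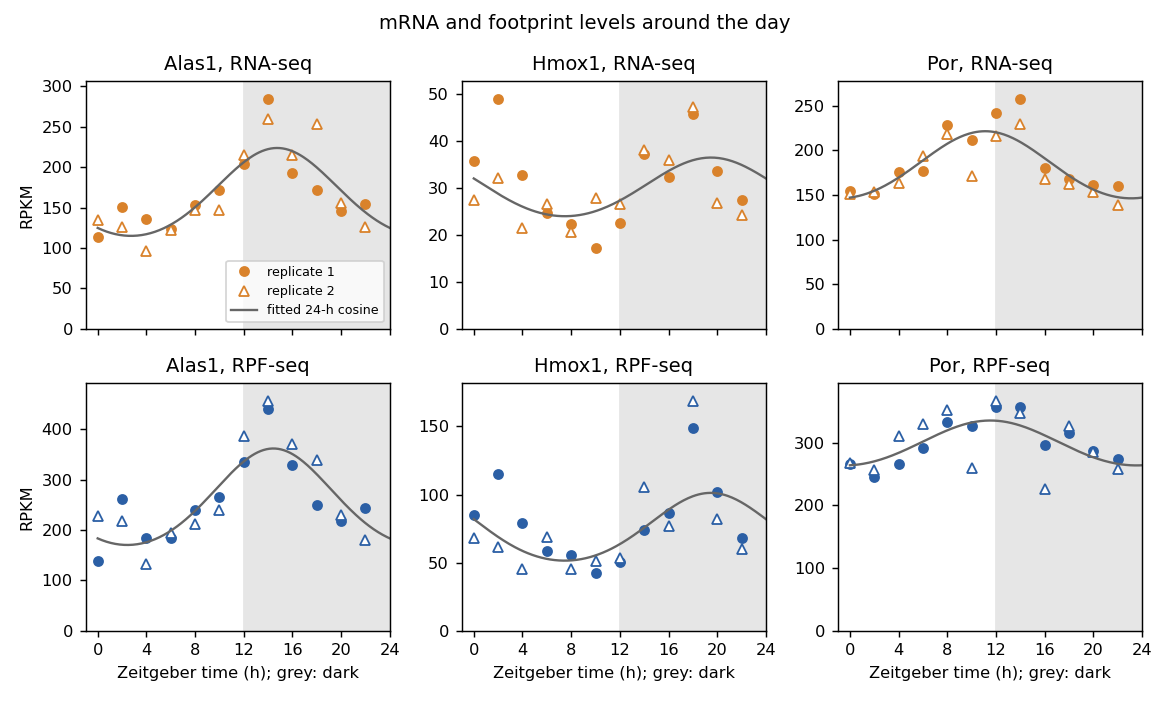
RPKM (y axes, linear from 0) of Alas1, Hmox1 and Por against Zeitgeber time in hours, RNA-seq above and RPF-seq below, with replicate 1 as filled circles, replicate 2 as open triangles, the fitted 24-h cosine in grey and the dark phase shaded. Alas1 is highest at ZT14 in both replicates of both assays (284 and 260 RPKM in RNA-seq), Hmox1 footprints are highest at ZT18 (149 and 168 RPKM), and Por mRNA is highest at ZT14 (257 and 229 RPKM).

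The enzymes after Alas1 were flat by comparison. Alad mRNA ranged from 68.0 to 100 RPKM around a median of 85.7, with a fitted fold of 1.17 (FDR 0.090), and its footprints ranged from 108 to 179 RPKM (fold 1.11, FDR 0.29). The 179 RPKM belonged to replicate 2 at ZT20, and no other library passed 138 RPKM. Urod mRNA ranged from 62.4 to 79.8 RPKM (fold 1.06, FDR 0.51) and its footprints from 98.2 to 123 RPKM (fold 1.04, FDR 0.65), the lowest footprint fold among the 9 genes. Cpox mRNA ranged from 88.9 to 133 RPKM (fold 1.13, FDR 0.13) and its footprints from 118 to 178 RPKM (fold 1.13, FDR 0.17).

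The last steps showed small changes that stayed under the fold cutoff. Ppox mRNA ranged from 10.7 to 15.1 RPKM with a fold of 1.14 (limma FDR 0.0501), and its footprints ranged from 7.09 to 11.1 RPKM with a fold of 1.26 (FDR 0.0067) and a peak at ZT9.7 ± 0.89 h. Fech mRNA ranged from 81.2 to 127 RPKM. It was lowest at ZT02 (81.2 and 94.9 RPKM) and highest at ZT18 (126 and 127 RPKM), with a fold of 1.22 (FDR 0.016) and a fitted peak at ZT14.5 ± 1.1 h. Fech footprints ranged from 82.7 to 106 RPKM with a fold of 1.09 (FDR 0.14). The intervals of all these folds end below that of Alas1 (at most 1.35 in RNA-seq, against a lower bound of 1.67), although the difference between genes was not itself tested.

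Uros, the uroporphyrinogen III synthase that closes the ring before Urod, did not pass the call either. It had 21.4 ± 2.63 RPKM in RNA-seq and 14.8 ± 2.59 in RPF-seq, with folds of 1.28 (FDR 0.0020) and 1.38 (FDR 0.018), both below the cutoff and with peaks at ZT0.24 and ZT2.3. Alas2, the erythroid isozyme of Alas1, had 13.1 ± 8.33 RPKM in RNA-seq and a fold of 1.47 that did not pass (FDR 0.43).

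Among 17 listed further genes of heme synthesis and of mitochondrial porphyrin and iron handling, 16 were tested and 1 was called, in both RNA-seq and RPF-seq, with 0 called in TE (4 at an unadjusted p under 0.05, limma). This was Clpx, the unfoldase of the mitochondrial ClpXP protease, known to act on aminolevulinate synthase. Clpx mRNA had a mean of 133 ± 41.2 RPKM (SD, n = 24) and a fold of 2.28 (limma FDR 3.6e-10) with a peak at ZT24.0 ± 0.28 h, and its footprints had a fold of 2.16 (FDR 3.4e-12) with a peak at ZT0.07 ± 0.21 h. The mRNA peaks of Clpx and Alas1 lay 9.24 ± 0.52 h (SE) apart. The median fold of the list was 1.20 in RNA-seq and 1.13 in RPF-seq, close to the medians over all genes.

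The bases before the transcription start were read for the members that RefSeq's promoter table (GRCm38.p6) holds, to show which carry clock motifs. It had 11 windows for 7 of the 9 genes, none for Hmox1 and Fech. Each window of 250 bases was searched on both strands for CACGTG (the E-box bound by CLOCK and BMAL1), TTANGTAA (the D-box bound by DBP and TEF), AGGTCA (the core bound by ROR and REV-ERB), GCGCATGC (bound by NRF1, a regulator of mitochondrial genes) and TGACNNNGC (the antioxidant response element). Over all 32851 windows, 6.02%, 2.06%, 14%, 2.26% and 10.2% held a match. Only Alad and Urod held CACGTG, and neither was called rhythmic, while the single window of Por held none of the 5. One of 2 windows of Alas1 held GCGCATGC on both strands, as 2 matches that overlap. The windows of Cpox, Ppox and Hmox2 held no match. Capitals below mark the matches. Alad is shown at chr4:62520064-62520313 (minus strand, match 105 bases before the start), Urod at chr4:116994414-116994663 (minus strand, 49 bases before the start) and Por at chr5:135688895-135689035 (plus strand), only up to the base where an annotated exon begins, while the search covered the whole window, of which 109 bases lie in exons. Of Alas1, only 30 bases at chr9:106247906-106247935 (minus strand) are shown. The annotation places 235 of the 250 bases of that window in an exon of a longer transcript, the shown bases at least in part. The other window of Alas1 lies wholly in annotated exons. The windows of Alas1, Por and Hmox2 lie inside the annotated genes, which start at chr9:106248654 (minus strand), chr5:135670033 and chr16:4726361 (plus strand). The bases before those gene starts were not searched. These matches are a description of sequence, and binding was not measured.
Alad: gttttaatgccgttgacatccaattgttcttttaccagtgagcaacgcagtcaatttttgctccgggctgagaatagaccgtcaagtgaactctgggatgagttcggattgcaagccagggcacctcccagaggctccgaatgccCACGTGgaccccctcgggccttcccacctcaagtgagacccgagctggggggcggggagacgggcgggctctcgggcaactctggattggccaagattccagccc
Urod: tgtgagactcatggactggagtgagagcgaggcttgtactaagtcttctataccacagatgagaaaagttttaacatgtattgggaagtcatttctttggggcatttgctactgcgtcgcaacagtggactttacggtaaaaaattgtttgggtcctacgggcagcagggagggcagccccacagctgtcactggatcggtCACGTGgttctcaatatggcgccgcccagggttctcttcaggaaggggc
Por: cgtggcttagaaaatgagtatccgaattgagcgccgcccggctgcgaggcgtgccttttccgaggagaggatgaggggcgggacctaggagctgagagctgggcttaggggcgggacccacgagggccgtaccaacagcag
Alas1: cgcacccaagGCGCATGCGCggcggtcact

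Hmox1, the inducible oxygenase, cycled in both assays and had wide gaps between replicates (replicate CV 17.8% in RNA-seq and 20.7% in RPF-seq). Its fitted 24-h footprint fold was below that of Alas1, but its highest timepoint mean in footprints was 3.38 times its lowest, against 2.83 times for Alas1. Its mRNA stood at 35.6 and 27.5 RPKM at ZT00, 48.9 and 32.1 at ZT02, 32.8 and 21.5 at ZT04, 24.6 and 26.6 at ZT06, 22.4 and 20.6 at ZT08, and 17.1 and 27.8 at ZT10. It stood at 22.5 and 26.6 RPKM at ZT12, 37.2 and 38.1 at ZT14, 32.3 and 36.0 at ZT16, 45.8 and 47.2 at ZT18, 33.6 and 26.8 at ZT20, and 27.5 and 24.2 at ZT22. Both pools at ZT18 were high, but the highest library was replicate 1 at ZT02. The fitted fold was 1.52 (95% interval 1.19 to 1.93, limma FDR 0.021) with a peak at ZT19.5 ± 1.1 h (SE), just past the cutoff. The fold dropped to between 1.44 and 1.499, under the cutoff, without ZT04 replicate 2, ZT08 replicate 1, ZT08 replicate 2, ZT10 replicate 1, ZT18 replicate 1 or ZT18 replicate 2, and with replicate 1 left out the FDR rose to 0.10.

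Hmox1 footprints showed the rise in the night more clearly. They were at 85.3 and 68.2 RPKM at ZT00, 115 and 61.7 at ZT02, 79.0 and 45.7 at ZT04, 58.6 and 68.9 at ZT06, 55.8 and 45.0 at ZT08, and 42.7 and 51.3 at ZT10. They were at 50.8 and 53.6 RPKM at ZT12, 73.7 and 106 at ZT14, 86.5 and 77.2 at ZT16, 149 and 168 at ZT18, 102 and 82.0 at ZT20, and 68.0 and 60.3 at ZT22. The 2 libraries at ZT18 stood above all other 22, and replicate 1 at ZT02 came next. The fold was 1.96 (95% interval 1.47 to 2.62, limma FDR 0.0037) with a peak at ZT19.5 ± 0.83 h, and the peaks of footprints and mRNA differed by -0.02 ± 1.4 h (SE). The call held without any one pool (fold 1.79 to 2.10), but without replicate 1 the FDR was 0.093.

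The ratio of Hmox1 footprints to mRNA was also highest at ZT18, at 3.25 and 3.57, against a median of 2.44 over all pools, and next at ZT20, at 3.03 and 3.06. The 4 pools of these timepoints stood above the other 20. The 24-h rhythm of its TE had a fold of 1.29 (95% interval 1.10 to 1.52) and did not pass (limma FDR 0.075). With a 12-h cosine added to the 24-h one, the fold was 1.51 and the FDR 0.020, which passed. That fold spans the joint curve from its minimum to its maximum, so it is a different measure from the 1.29. The 12-h terms of the joint fit, tested after the values had been seen, did not pass for Hmox1. Their limma FDR was 0.31 in TE, 0.11 in RNA-seq and 0.19 in RPF-seq. They did not pass for the other 8 genes either. Of all genes tested, 0.598% passed in RNA-seq and 0.700% in RPF-seq.

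Hmox1 is also expressed by macrophages that clear red blood cells, so markers of both were read beside it. The summed RPKM of 9 measured macrophage and leukocyte markers ranged from 90.4 to 146 in RNA-seq. At ZT18, where Hmox1 was high in both pools, this sum was 90.4 RPKM in replicate 1, the lowest library, and 137 in replicate 2, among the 4 highest. In RPF-seq the sum at ZT18 was 125 and 180 RPKM. The sum of 5 measured red blood cell markers ranged from 54.9 to 374 RPKM in RNA-seq and from 28.6 to 231 in RPF-seq, and was highest in both at ZT16 replicate 1, while at ZT18 it was 77.6 and 57.0 RPKM in RNA-seq. No gene of either list was called in RNA-seq or RPF-seq by limma. At an unadjusted p under 0.05, mRNA gave 2 of 4 red blood cell and 4 of 8 macrophage genes, and footprints gave 0 and 3. In RNA-seq, Adgre1 passed the FDR with a fold of 1.43 below the cutoff (limma FDR 0.028), and its peak at ZT19.6 lay near that of Hmox1. Ptprc (fold 1.29, limma FDR 0.041, peak ZT22.1) and Csf1r (fold 1.18, limma FDR 0.011, peak ZT4.6) passed it as well. The other macrophage genes tested did not, and in RPF-seq none did. In TE limma called 1 of the 4 red blood cell genes, Hba-a1 (fold 1.70, FDR 0.013). It also called 2 of the 8 macrophage genes in TE, Ptprc (fold 1.54, FDR 0.0047) and C1qb (fold 1.65, FDR 0.0056). Of all genes 3.74% were called in TE. The part of these cells in the Hmox1 result was not tested. The beta-globin genes Hbb-b1, Hbb-b2 and Hbb-bs and the erythroid gene Ahsp were not among the measured genes.

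Hmox2 was steady in mRNA, between 41.0 and 63.1 RPKM, with a fold of 1.03 (95% interval 0.92 to 1.14, limma FDR 0.92). Its footprints ranged from 44.3 to 73.5 RPKM with a fold of 1.19 (FDR 0.019), below the cutoff, and a peak at ZT4.3 ± 1.0 h. Of its 945 coding bases 252 lie in an exon of Cdip1 on the opposite strand, and whether the authors' counting used strand is not given in the sources used here. The biliverdin reductases that follow heme oxygenase were flat in mRNA. Blvra had 74.2 ± 6.14 RPKM (SD, n = 24) with a fold of 1.05 (FDR 0.63), and in footprints a fold of 1.24 (FDR 0.0025) under the cutoff. Blvrb had 26.6 ± 4.21 RPKM with a fold of 1.06 (FDR 0.83), and 1.26 in footprints (FDR 0.16).

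Por, the electron donor of the microsomal P450s, rose through the light phase and fell after ZT14. Its mRNA had 154 and 151 RPKM at ZT00, 151 and 154 at ZT02, 176 and 163 at ZT04, 177 and 194 at ZT06, 228 and 218 at ZT08, and 212 and 172 at ZT10. It had 242 and 216 RPKM at ZT12, 257 and 229 at ZT14, 180 and 168 at ZT16, 168 and 162 at ZT18, 161 and 153 at ZT20, and 160 and 139 at ZT22. The libraries at ZT08, ZT12 and ZT14, all at 216 RPKM or more, stood above those of the other 9 timepoints. The fold was 1.51 (95% interval 1.37 to 1.68, log2 fold 0.60 ± 0.08 SE, limma FDR 3.5e-06) with a peak at ZT11.1 ± 0.48 h. The FDR stayed at 1.5e-05 or lower without any one pool, but the fold is so near 1.5 that it fell to between 1.47 and 1.498 without ZT08 replicate 1, ZT12 replicate 1, ZT14 replicate 1, ZT14 replicate 2 or ZT22 replicate 2, and to 1.46 with replicate 1 left out.

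Por footprints moved less, from 226 RPKM in replicate 2 at ZT16 to 366 in replicate 2 at ZT12, with a median of 294. At ZT02 they were at 246 and 257 RPKM, at ZT08 at 332 and 352, at ZT12 at 357 and 366, at ZT14 at 357 and 348, and at ZT22 at 274 and 258. The fold was 1.27 (95% interval 1.13 to 1.43, FDR 0.012), below the cutoff, with a peak at ZT11.5 ± 0.97 h. TE of Por had its lowest timepoint at ZT14 (1.39 and 1.52) and its highest at ZT18 (1.88 and 2.02), with a fold of 1.20, a fitted peak at ZT22.6 ± 1.1 h and an FDR of 0.053, close to the threshold on its far side. The FDR was 0.046 with a replicate block, 0.048 with a minimum of 2 RPKM, 0.035 without ZT12 replicate 2 and 0.037 without ZT16 replicate 2, and reached 0.092 without ZT08 replicate 1 and 0.48 with replicate 1 left out. Under the 1.5-fold cutoff none of these is a call.

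Of 31 listed P450s and other acceptors of electrons from Por, 30 were tested, 2 were called for mRNA, 1 for footprints and 0 for TE (15 at an unadjusted p under 0.05 in TE, limma). Cyp2a5, a coumarin hydroxylase, had 45.9 ± 16.9 RPKM (SD, n = 24) in RNA-seq with a fold of 2.13 (FDR 0.0013) and a peak at ZT15.1 ± 0.79 h, and a fold of 2.15 in footprints (FDR 0.0039, peak ZT14.9 ± 0.84 h). Its mRNA peak lay 0.38 ± 0.91 h (SE) after that of Alas1. Cyp2a5 shares most of its sequence with Cyp2a4, so reads could be split between them. Cyp2s1 had 6.78 ± 1.46 RPKM and a fold of 1.70 (FDR 5.0e-06) with a peak at ZT7.4 ± 0.49 h, and a fold of 1.40 in footprints (FDR 0.0014). The median fold of the list was 1.23 in RNA-seq and 1.17 in RPF-seq.

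The mitochondrial P450s take their electrons from ferredoxin and not from Por. Of 7 listed genes of this branch 6 were tested, and the same 2 were called in both assays, with 0 in TE (2 at an unadjusted p under 0.05, limma). Cyp24a1, the 24-hydroxylase that inactivates vitamin D, had 38.9 ± 30.1 RPKM with a fold of 5.37 (FDR 1.1e-04) and a peak at ZT6.4 ± 0.63 h in RNA-seq, and a fold of 4.45 in footprints (FDR 0.0013, peak ZT6.5). Cyp27b1, the 1-alpha-hydroxylase that activates it, had 3.07 ± 1.67 RPKM with a fold of 2.59 (FDR 0.0095, peak ZT10.4 ± 1.0 h), and 2.85 in footprints (FDR 0.040, peak ZT11.2).

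**Figure D4:**
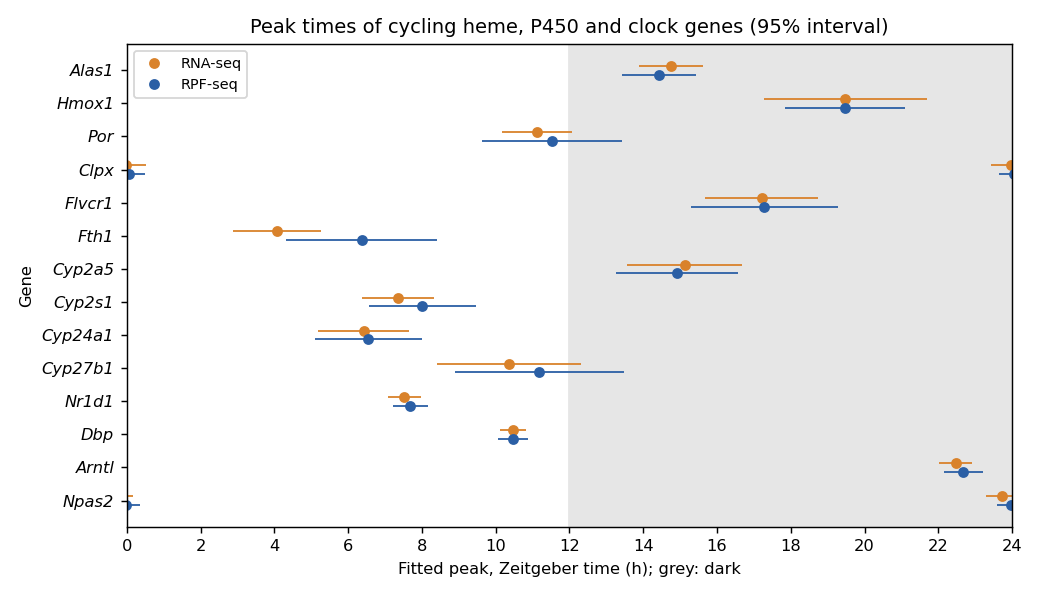
Fitted peak in Zeitgeber time (x axis, hours, dark phase shaded) of 14 genes in RNA-seq (orange) and RPF-seq (blue), with 95% intervals as bars. Alas1 peaks at ZT14.7 in RNA-seq beside Cyp2a5 at ZT15.1, Por at ZT11.1 lies near Dbp at ZT10.5, and Clpx peaks at lights on.

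Heme export, scavenging, iron storage and bile pigment genes gave 4 calls for mRNA, 0 for footprints and 2 for TE among 12 tested of 15 listed. Flvcr1, a heme exporter, had 7.36 ± 1.61 RPKM with a fold of 1.51 (FDR 0.0012, peak ZT17.2 ± 0.78 h) and 1.39 in footprints (FDR 0.017). Fth1, the ferritin heavy chain, had 4082 ± 1036 RPKM with a fold of 1.74 (FDR 7.0e-05, peak ZT4.1 ± 0.60 h) and 1.49 in footprints (FDR 0.020), with the reservation that Fth1 has many processed pseudogenes. Hpx (hemopexin) and Hp (haptoglobin), plasma proteins made chiefly in liver, were near the detection limit with 0.688 ± 0.444 and 1.66 ± 0.768 RPKM, and had folds of 2.79 (FDR 0.0073, peak ZT1.7) and 2.01 (FDR 0.045, peak ZT2.5). Both were called in TE with a peak at ZT13.8 and ZT14.8. At an unadjusted p under 0.05, limma gave 7 of the 12 genes in RPF-seq. For Hpx and Hp the footprint FDR was 0.14 and 0.82.

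Some hepatocyte markers had RNA-seq peaks near those of Hpx and Hp. Of 8 listed, 7 were tested and 4 were called in RNA-seq (Alb, Apoa1, Fgb and Mup3, with peaks from ZT23.8 to ZT1.7), 1 in RPF-seq (Alb, peak ZT15.6) and 4 in TE. Alb had 14.1 ± 5.27 RPKM in RNA-seq and 50.7 ± 26.5 in RPF-seq. The sum of the 7 ranged from 139 to 480 RPKM in RNA-seq and from 241 to 805 in RPF-seq, and Cyp2c29, which is abundant in liver, was not among the measured genes. Ttr made up most of it with 288 ± 80.1 RPKM and a fold of 1.16 (FDR 0.76). Apoc3 (fold 1.11, FDR 0.69, fitted peak ZT18.6) and Serpina1a (fold 1.36, FDR 0.55, fitted peak ZT14.4) did not pass in RNA-seq either. The RNA-seq peaks of the 4 called markers lay 9.06 to 10.9 h from that of Alas1 and 9.44 to 11.3 h from that of Por. In RPF-seq, however, the fitted peak of Alb at ZT15.6 ± 1.0 h lay near that of Alas1 footprints at ZT14.4 ± 0.52 h, and Apoa1, Mup3 and Apoc3, which did not pass there, had fitted peaks from ZT15.0 to ZT15.5. The part of liver RNA in the Hpx, Hp and Alas1 results was not tested. The 13 kidney segment markers, by comparison, summed to between 7753 and 9524 RPKM in RNA-seq.

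Regulators known to act on Alas1, Hmox1 or Por, the clock among them, gave 10 calls in RNA-seq and 11 in RPF-seq of 28 tested of 29 listed, and 0 in TE (9 at an unadjusted p under 0.05, limma). The median fold of the list was 1.39 in RNA-seq and 1.21 in RPF-seq. The largest folds belonged to Dbp (42.1-fold, peak ZT10.5), Arntl (25-fold, peak ZT22.5), Npas2 (24.9-fold, peak ZT23.7) and Nr1d1 (21.7-fold, peak ZT7.5), with FDR values of 7.9e-12 or lower. NPAS2 and REV-ERB alpha (the product of Nr1d1) bind heme, and DBP activates D-box genes. Against Dbp as a time reference, Por mRNA peaked 0.65 ± 0.51 h (SE) later and Alas1 mRNA 4.28 ± 0.48 h later.

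The genes most like Alas1 across the 24 RNA-seq libraries, by Pearson correlation of log2(RPKM + 0.1) and as a description, were Glul (r = 0.91), Adra2b (0.89), Per2 (0.87), Tsc22d3 (0.87) and Mertk (0.86). Their peaks fell between ZT14.6 and ZT15.7, and their folds ran from 1.28 for Mertk to 7.73 for Per2. For Por they were Tef (r = 0.92), Slc25a10 (0.91), Igfbp4 (0.89), Gstt2 (0.89) and Vwa1 (0.89), with peaks between ZT10.5 and ZT12.6 and folds from 1.38 for Slc25a10 to 2.87 for Tef. Por and Alas1 themselves had r = 0.55. Between members the closest pair was Fech and Urod with r = 0.75. All points of such a correlation share libraries and time of day.

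While none of the 9 genes was called rhythmic in TE, they differed widely in its level. TE was set against the median gene of the same pool, and a gene was called at an FDR under 0.05 in limma's test and a difference of at least 1.5-fold. Of the 9 genes 5 were called higher, against 20.6% of all genes, and 0 lower, against 26.0% of all genes.

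Hmox1 stood highest, at 2.57 times the median gene (log2 difference 1.36 ± 0.04 SE, FDR 1.2e-20), at percentile 98.3 of all genes tested. The ratio of its footprint RPKM to its mRNA RPKM ranged from 1.85 to 3.57 over the pools. Por followed at 1.74 times the median gene (FDR 9.9e-20), then Alas1 at 1.64, Urod at 1.59 and Alad at 1.59 times (FDR 1.5e-16 or lower). Cpox at 1.34, Hmox2 at 1.16, Fech at 0.90 and Ppox at 0.80 times the median gene passed the FDR without reaching 1.5-fold. Most genes pass this FDR, 10722 of the 11863 tested. In ratio, Ppox ranged from 0.612 to 0.913 and Fech from 0.707 to 1.11 over the pools. Uros, which acts just before Urod in the chain, had a mean ratio of 0.697 ± 0.131 (SD, n = 24 pools). Among these enzymes of the chain the mean ratio was thus above 1 for Alas1, Alad, Urod and Cpox and below 1 for Uros, Ppox and Fech. The count of 5 was the same under every alternative run except the removal of the fold cutoff, which gave 9, beside 10722 of all 11863 genes.

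**Figure D5:**
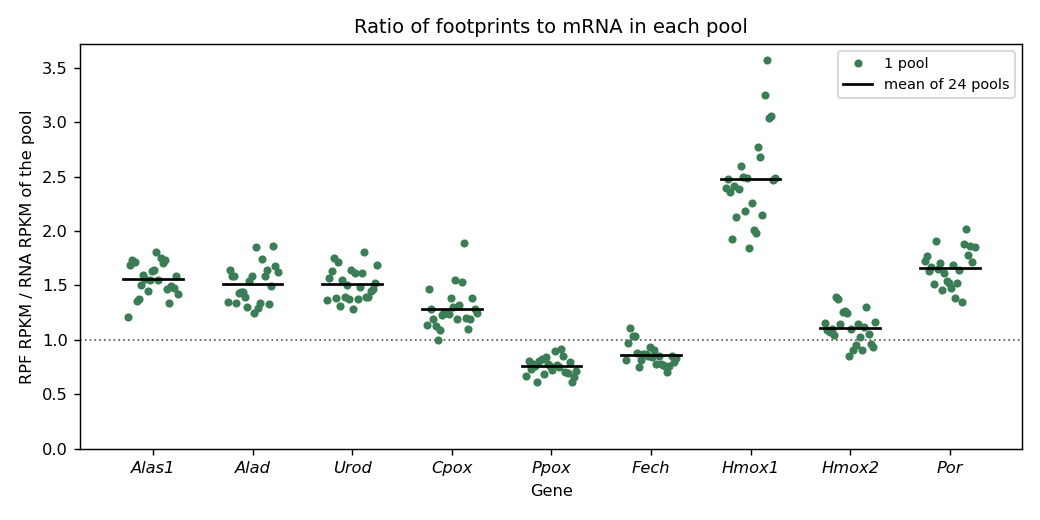
Ratio of RPF-seq to RNA-seq RPKM (y axis, linear from 0) of each gene in each of the 24 pools, with a black line at the mean and a dotted line at 1. Hmox1 lies highest with pools between 1.85 and 3.57, and the pools of Ppox all lie below 1.

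Depth differed between libraries. Values lay on whole reads for 96.6% to 99.5% of low genes (within 0.03 of a whole number), which gave relative depths of 0.60 to 2.04 in RNA-seq and 0.70 to 1.58 in RPF-seq around their medians. On the longest coding sequence, the member with the fewest reads was Ppox, with 158 to 450 per RPF-seq library, and Alas1 had 2577 to 13192 per RNA-seq library. Counting error alone was then 7.96% at the lowest Ppox library and 1.97% at the lowest Alas1 library. For Ppox in RNA-seq it was 7.83% at the lowest library (163 reads), beside a replicate CV of 7.05% over all timepoints. The SE of the fitted log2 fold of Ppox mRNA was 0.063, still the smallest among the 9 genes in RNA-seq. The pool of ZT10 replicate 2 had the lowest sums of kidney segment markers (7753 RPKM in RNA-seq and 11595 in RPF-seq). It also had the lowest sums of hepatocyte markers (139 and 241 RPKM). By its count of genes at 0, 1 library stood apart: ZT04 replicate 2 of RPF-seq listed 162, where no other library listed more than 23. Without its pool 2 of the 9 genes were called in RNA-seq, Hmox1 being lost with a fold of 1.49, and 2 in RPF-seq.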

How the data were processed

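The authors trimmed reads with Cutadapt, kept fragments of the expected size, removed those matching rRNA and tRNA, mapped the rest to transcripts with Bowtie2 2.2.1 and to the genome (GRCm38.p2) with TopHat2 2.0.11, took expressed transcripts from Cufflinks 2.2.1, counted reads on coding sequences, normalised libraries by upper quantiles with edgeR and deposited RPKM values by gene, with 1 file for each library. Genes with low values had been left out by the authors. Such values hide any change in total mRNA per cell and are not counts, so no count model was fitted.

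From the deposited RPKM values of 48 libraries, log2(RPKM + 0.1) of 11863 genes with a median of at least 0.5 RPKM in both assays was fitted with limma 3.58.1 (R 4.3.3, eBayes with a trend) on a 24-h cosine and sine, without a replicate block, and Benjamini-Hochberg adjusted over all of these genes. Called genes had an FDR under 0.05 and a fitted fold of at least 1.5. The added 0.1 RPKM understates folds of low genes. TE was the RPF-seq minus RNA-seq log2 value of a pool. Peak errors are delta-method standard errors. Level orders used sign-flip permutation in Python 3.11.15 with scipy 1.17.1. The fits were tested on simulated data. Pools held different mice.

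The 9 genes and the lists were chosen with earlier results of these data known. From each list the called genes were named, or the 4 with the largest fold where more were called, with Uros, Blvra, Blvrb, Nr1d1 and Dbp always named and 5 genes most like Alas1 and like Por. Some genes that this rule names are not reported here. Positions come from GENCODE vM21 and promoters from RefSeq (GRCm38.p6). Alternatives were a pseudocount of 1 or 0.01, a minimum of 2 RPKM or none, quantile normalisation, a replicate block, added 12-h cosines, no fold cutoff, an FDR of 0.01, TE centred on the mean, and leaving out each replicate or pool.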

Additional observations from a re-analysis of the deposited data

How the results depend on the processing

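The Alas1 calls in RNA-seq and RPF-seq and the Hmox1 call in RPF-seq passed under every alternative run, except that Hmox1 in RPF-seq lost its call without replicate 1. The Hmox1 and Por calls in RNA-seq rest on folds near 1.5 and depend on single pools, as the report gives. The removal of the fold cutoff raised the members called to 5 in RPF-seq and to 9 in TE level, and among all genes it gave 5761 calls for mRNA, 3663 for footprints, 2028 for TE rhythm and 10722 for TE level. A pseudocount of 1 lowered the calls among all genes to 781 for mRNA and 590 for footprints, and Hmox1 mRNA to a fold of 1.4997. An FDR of 0.01 left 215 genes in TE rhythm and removed the Hmox1 call in RNA-seq. With added 12-h cosines 1 member, Hmox1, was called in TE rhythm. With 1 replicate left out, members called ran from 1 to 3 for mRNA and 1 to 2 for footprints, and calls among all genes from 722 to 1430 for mRNA, 370 to 853 for footprints and 0 to 2 for TE rhythm, with 12 libraries in each fit. With 1 pool left out, members called in RNA-seq ran from 1 (without ZT08 replicate 1) to 3, and calls among all genes from 1160 to 1295 for mRNA, 861 to 956 for footprints and 329 to 478 for TE rhythm.

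Replicate numbers were not taken to pair the samples. Differences between replicates correlated over genes with a mean r of 0.03 for mRNA (-0.18 to 0.48) and 0.02 for footprints (-0.20 to 0.19) over 66 pairs of timepoints, of which 13 and 10 exceeded 0.1, and whether the numbers stand for the 2 daily cycles is not given in the sources used here. With the replicate block the members called were 3 for mRNA, 2 for footprints and 0 for TE rhythm. The cause of the changes in calls between the alternatives was not tested.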

Other observations

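Some of the kidney segment markers cycled as well. Aqp2, the water channel of the collecting duct, had 124 ± 33.0 RPKM (SD, n = 24) with a fold of 1.72 (limma FDR 3.6e-04) and a peak at ZT14.8 ± 0.70 h, within the error of the Alas1 peak, and a fold of 1.67 in footprints. Calb1, a distal tubule calcium binder, had 369 ± 75.7 RPKM with a fold of 1.53 and a peak at ZT23.7 in RNA-seq, and in footprints a fold of 1.29 that did not pass (FDR 0.10). The proximal tubule markers Slc34a1, Lrp2, Slc5a2 and Slc22a6 had folds from 1.13 to 1.20 in RNA-seq and were not called.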
